A study of Mus musculus with 8 samples.

Results

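The genes described here are markers of 3 myeloid cell classes: 13 of neutrophils, 15 of macrophages and 7 of mast cells. They were taken by gene symbol from a list of 35, with the probe set of highest mean where a gene had several. The gene table paired 34 of the 35 with a probe set that names a single gene, out of 22180 genes tested. Fpr1, a formyl peptide receptor of neutrophils, was not listed in it and has no expression value here. This gene enters only the counts of sequence windows around start sites. The samples were epidermis of newborn (P0) C57BL/6J mice, with 1 array for each of 8 total RNA samples. In 4 of them, labelled K320E-TwinkleEpi (K320E below), a mutant of the mitochondrial helicase Twinkle was expressed under the K14 promoter. The other 4 were controls labelled R26-K320E-TwinkleloxP/+, a label that names the mutant Twinkle too. The K14 promoter is active in basal keratinocytes, which are not myeloid cells. The arrays measured RNA of whole epidermis, and which cells made the marker transcripts was not tested. The series title names severe skin inflammation, and the comparison asks which myeloid transcripts differ in the epidermis at birth. The labels do not say whether the arrays came from separate animals, and the p-values therefore reflect the variation among these 8 samples alone, part of which could be technical. Sex-linked transcripts, given below, differed within both groups, so the arrays of a group did not all hold the same RNA.

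Myeloid cells reach the skin from blood and from embryonic precursors. Neutrophils are short-lived cells that carry antimicrobial proteins in granules, many of which are transcribed in the bone marrow before the cells leave it. Macrophages take up debris and microbes, depend on signals through the receptor encoded by Csf1r, and share many transcripts with Langerhans cells, the myeloid cells that live within the epidermis. Mast cells store histamine and proteases in granules and live mainly in the dermis, below the tissue sampled here.

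The arrays correlated with each other at r = 0.987 to 0.994 within the groups and 0.976 to 0.992 between them. Twnk, which encodes Twinkle, measured 9.05 ± 0.18 in K320E and 6.73 ± 0.18 in control arrays (log2 intensity, mean ± SD, n = 4 each), a check that matches the labels on all 8 arrays. The tissue label was checked against 11 keratinocyte markers, whose mean lay between 11.84 and 12.02 on every array. Their largest fold changes were -0.31 for Krt15 and 0.27 for Krt14, each with groups that did not overlap (limma adjusted p = 0.117 and 0.141). Sex-linked transcripts differed within the groups. Xist was at 6.84 in K320E replicate 3 with a mean of 3 Y-linked genes of 8.64, at 9.27 in control replicate 2 with 9.05, and at 6.17 in control replicate 3 with 4.75. The other 5 arrays had Xist between 12.07 and 12.27 and a Y-linked mean between 4.75 and 4.82. Control replicate 2 thus carried both kinds of transcript and control replicate 3 neither at the level of the other arrays, which puts the make-up of these 2 control samples in doubt; what they hold was not tested. The fold changes of the markers that moved most without these arrays are given with and without them.

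The arrays carry no detection call. As a gauge, 1390 olfactory and vomeronasal receptor genes, which skin is not known to use, had mean log2 intensities from 4.44 (5th percentile) to 6.07 (95th percentile), with a median of 4.69. Probe sets differ in affinity, so a level inside this range does not show that a transcript is absent. By this gauge 11 of 12 neutrophil markers, 2 of 15 macrophage markers and 6 of 7 mast cell markers had a mean at or under 6.07. The macrophage class was therefore the class whose transcripts stood mostly above the gauge.

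The windows around the start sites of these genes were compared first, because they show sequence features that the choice of markers did not use. RefSeq windows of 300 bases (GRCm38.p6, 250 bases before to 50 after the start) were listed for 29 of the 35 genes, 30 windows in all, with a pair of windows for Ly6g. The letters GAGGAA, a core bound by the myeloid factor PU.1, were in 11 of 14 neutrophil windows, 7 of 10 macrophage windows and 1 of 6 mast cell windows, against 28.3% of 32851 windows of all genes. Both Ly6g windows are among the 11, so this gene is counted more than once. Its matches lay at bases 115 and 220 of the first window and, with the same letters and spacing, at 47 and 152 of the second. The second window held a further GAGGAA at base 277. AGATAA or TGATAA, bound by GATA factors, was in 4 of 6 mast cell windows, 2 of 14 neutrophil windows and 0 of 10 macrophage windows, against 18.6% of all windows. CATGTG, the core of the M-box bound by MITF, was in 4 macrophage windows, 1 mast cell window and 0 neutrophil windows (14.2% of all). TGAGTCA, bound by AP-1, was in 1 member window, that of Cd68 (5.2% of all). Both strands were searched, and in genes with a single window no 2 matches overlapped. A match is a description of letters and not a bound site.

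The 6 windows below belong to markers that the results turn on: the neutrophil collagenase gene Mmp8, the macrophage genes Cd68 and Ctss, and the mast cell genes Cpa3, Mcpt4 and Hdc. They read 5′ to 3′ on the strand of the gene, and capitals mark the motif matches on either strand. Cd68 holds GAGGAA on each strand and TGAGTCA at positions -149 and -24 from the start. Cpa3 holds AGATAA at position -46 and Mcpt4 TGATAA at position -103, while the Hdc window holds none of the letters searched.
Mmp8 (chr9:7558179-7558478, plus strand): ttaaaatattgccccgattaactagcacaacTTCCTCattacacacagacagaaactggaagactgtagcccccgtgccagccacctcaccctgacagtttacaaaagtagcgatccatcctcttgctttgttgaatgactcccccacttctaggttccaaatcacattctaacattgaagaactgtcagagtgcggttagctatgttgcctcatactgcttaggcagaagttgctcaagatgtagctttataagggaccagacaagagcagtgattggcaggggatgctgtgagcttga
Cd68 (chr11:69666121-69666420, minus strand): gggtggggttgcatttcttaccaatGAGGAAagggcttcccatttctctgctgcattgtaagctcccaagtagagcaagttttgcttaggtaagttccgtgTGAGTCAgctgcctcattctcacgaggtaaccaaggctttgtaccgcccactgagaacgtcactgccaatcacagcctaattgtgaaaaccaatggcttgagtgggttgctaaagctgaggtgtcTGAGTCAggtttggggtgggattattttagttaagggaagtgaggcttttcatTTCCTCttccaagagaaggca
Ctss (chr3:95526536-95526835, plus strand): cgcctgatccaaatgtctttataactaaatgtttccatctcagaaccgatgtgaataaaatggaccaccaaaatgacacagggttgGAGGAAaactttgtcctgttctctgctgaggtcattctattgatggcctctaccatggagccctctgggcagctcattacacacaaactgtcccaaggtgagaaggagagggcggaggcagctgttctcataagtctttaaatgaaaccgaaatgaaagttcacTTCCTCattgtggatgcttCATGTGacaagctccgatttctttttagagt
Cpa3 (chr3:20242132-20242431, minus strand): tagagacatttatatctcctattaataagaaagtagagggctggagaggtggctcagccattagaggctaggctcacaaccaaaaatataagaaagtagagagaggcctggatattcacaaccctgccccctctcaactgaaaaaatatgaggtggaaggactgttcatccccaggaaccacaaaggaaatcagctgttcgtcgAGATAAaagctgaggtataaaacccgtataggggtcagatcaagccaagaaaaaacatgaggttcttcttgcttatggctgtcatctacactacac
Mcpt4 (chr14:56062261-56062560, minus strand): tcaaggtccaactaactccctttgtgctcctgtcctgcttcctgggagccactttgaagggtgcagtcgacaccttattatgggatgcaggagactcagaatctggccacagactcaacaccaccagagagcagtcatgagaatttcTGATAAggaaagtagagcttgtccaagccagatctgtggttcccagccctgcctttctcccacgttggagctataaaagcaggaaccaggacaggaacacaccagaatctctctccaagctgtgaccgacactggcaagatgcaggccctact
Hdc (chr2:126618629-126618928, minus strand): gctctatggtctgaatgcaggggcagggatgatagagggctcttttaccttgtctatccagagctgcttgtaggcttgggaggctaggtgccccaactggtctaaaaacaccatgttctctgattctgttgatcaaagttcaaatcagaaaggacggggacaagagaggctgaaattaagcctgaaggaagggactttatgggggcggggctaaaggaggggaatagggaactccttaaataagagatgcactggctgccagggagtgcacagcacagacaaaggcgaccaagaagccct

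No marker passed the test between the genotypes. Of the 34 measured, 0 had an adjusted p under 0.05 in limma over all genes, where 195 of 22180 genes (0.879%) did, 0.685% higher and 0.194% lower in K320E. At an unadjusted p under 0.05 there were 8 markers, 4 higher and 4 lower in K320E, against 14.8% of all genes (8.77% higher and 6.06% lower). Groups that did not overlap were seen for 4 markers, Cd68, Cd14 and Hdc with all K320E arrays higher and Tyrobp with all lower, against 9.25% of all genes (5.50% higher and 3.75% lower). These 4 of 34 are near that background. The median log2 fold change, K320E minus control, was 0.08 over the neutrophil markers, -0.12 over the macrophage markers and 0.35 over the mast cell markers, while over all genes it was 0.00 to 2 decimals. Positive fold changes were found for 11 of 12, 5 of 15 and 7 of 7 markers of these classes, against 49.8% of all genes. Differences between the classes were not tested. These are whole-tissue samples, in which fewer cells of a type and less RNA per cell cannot be told apart.

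**Figure D1:**
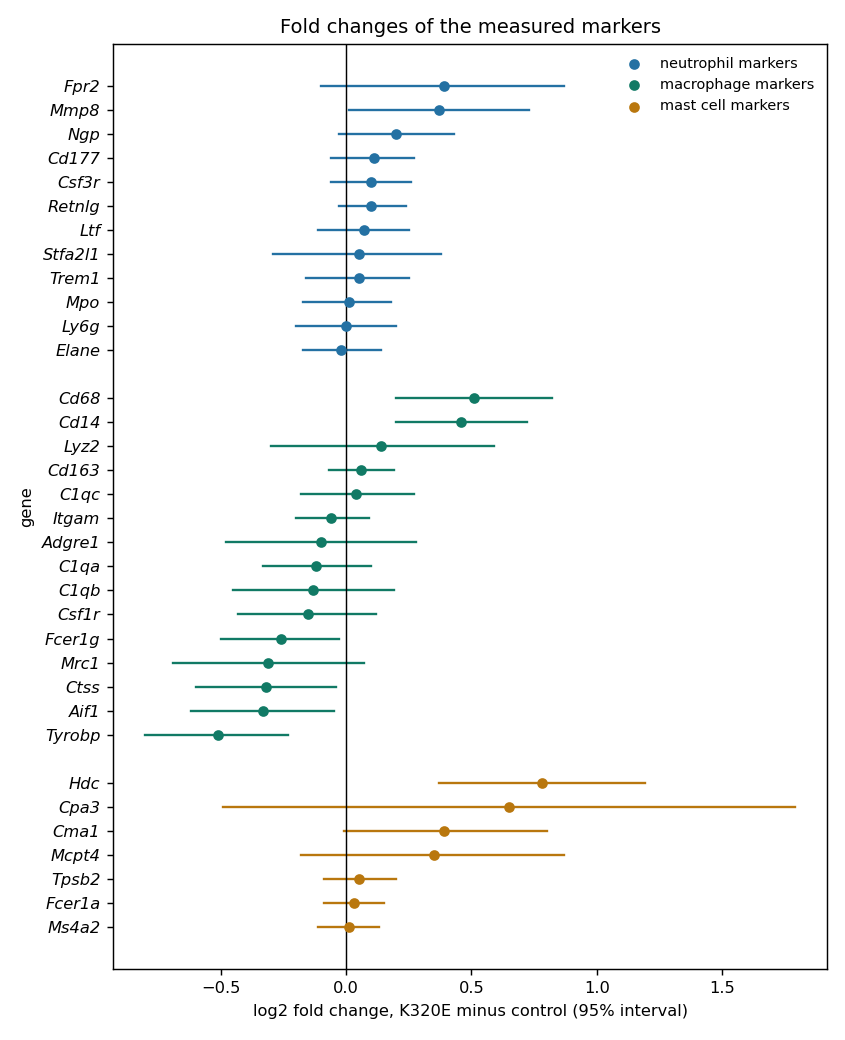
Log2 fold change of each of the 34 markers (points, x axis, K320E minus control) with its 95% interval from limma (lines), grouped by cell class. The intervals of 8 markers leave out 0: Mmp8, Cd68, Cd14 and Hdc lie to the right and Fcer1g, Ctss, Aif1 and Tyrobp to the left, and none passed the threshold after adjustment over all genes.

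The primary granule enzymes and Ly6g had the fold changes nearest 0 among the neutrophil markers. Mpo, the myeloperoxidase that makes hypochlorous acid, had means of 5.59 ± 0.11 in the mutants and 5.58 ± 0.11 in the controls (SD over 4 arrays each), and Elane, neutrophil elastase, of 5.84 ± 0.07 and 5.86 ± 0.11. The intervals of their log2 fold changes were -0.17 to 0.18 and -0.17 to 0.14. Ly6g, the surface protein that defines mouse neutrophils, lay between 4.70 and 4.86 in K320E and between 4.59 and 5.01 in controls. Its interval was -0.20 to 0.20, so the upper bound on this probe set was 1.15-fold. All 3 lay inside the range of the receptor gauge on every array.

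Genes of the other granules had small positive fold changes. Ngp, neutrophilic granule protein, measured 5.82, 5.33, 5.51 and 5.66 in K320E replicates 1 to 4 and 5.39, 5.35, 5.30 and 5.50 in the controls. The groups overlapped, since K320E replicate 2 lay below 3 of the controls, and the log2 fold change was 0.20 (SE 0.10, limma adjusted p = 0.426). Mmp8 measured 6.40, 5.96, 6.21 and 6.22 in K320E and 5.60, 6.22, 5.98 and 5.50 in the controls. Its K320E replicate 2 lay below control replicates 2 and 3, and it had the lowest unadjusted p of the class (0.045), beside a difference of 0.37 on the log2 scale (SE 0.16; limma adjusted p = 0.322). Without control replicates 2 and 3 together, the fold change of Mmp8 was 0.65 (limma adjusted p = 0.0757). Ltf, the iron-binding lactoferrin, and Cd177, a surface protein of secondary granules, had fold changes of 0.07 and 0.11 at levels from 5.11 to 5.40 and from 5.58 to 5.94. Retnlg, a resistin-like protein of neutrophils, had one of 0.10 at levels from 5.01 to 5.28.

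Of the receptors, Fpr2 had the largest fold change. Its product senses formyl peptides and other chemoattractants. It measured 6.15, 5.94, 6.36 and 5.93 in K320E and 5.91, 6.12, 5.78 and 5.02 in the controls. Control replicate 4 was the low array and the groups overlapped; the fold change of 0.39 (SE 0.21, limma adjusted p = 0.459) was 0.16 without that array and 0.63 without control replicates 2 and 3 together. Csf3r, the receptor for granulocyte colony-stimulating factor, had a fold change of 0.10 and Trem1, which amplifies inflammatory signals, one of 0.05, with levels from 5.08 to 5.81 over both genes and all arrays.

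Stfa2l1 stood apart from its class in level. It encodes a stefin A-like inhibitor of cysteine proteases, a family that neutrophils and epidermis both make. It measured 10.10, 9.72, 9.99 and 10.32 in K320E and 9.75, 10.24, 10.16 and 9.80 in the controls. The groups overlapped fully, and the means differed by 0.05 on the log2 scale (SE 0.15; limma adjusted p = 0.932), or by 0.26 without control replicates 2 and 3 together. Its relatives Stfa1 and Stfa3, for which the fold changes were -0.07 and -0.18, share sequence with it, so the values of single members of the family are uncertain.

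**Figure D2:**
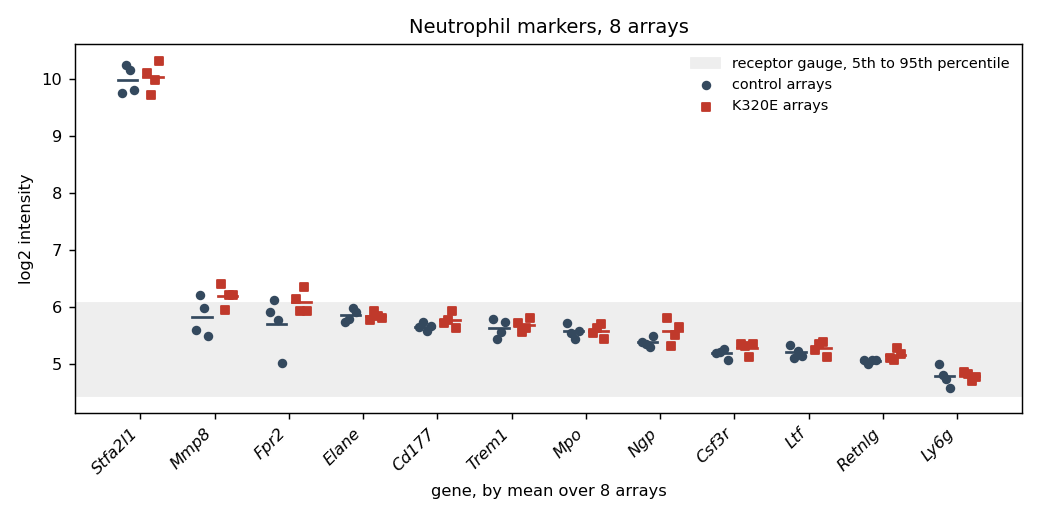
Log2 intensity (y axis) of the 12 measured neutrophil markers on the 4 control arrays (circles) and 4 K320E arrays (squares), with group means as lines and the range of the receptor gauge shaded. Stfa2l1, near 10 in both groups, is the single marker with all 8 arrays above the shaded range, and the groups of every marker overlap.

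Of 21 other neutrophil genes measured, 1 rose and 0 fell in limma's test over all genes, and the median was 0.05. At an unadjusted p under 0.05 in limma 9 were higher and 1 lower, against 8.77% and 6.06% of all genes. All K320E arrays lay above all controls for 5 genes and below them for 0, against 5.50% and 3.75% of all genes. The gene that rose was Clec4d, a C-type lectin of myeloid cells that recognises fungal walls, by 0.96 (SE 0.18, limma adjusted p = 0.0477). It measured 6.73, 6.01, 6.66 and 6.69 in K320E and 5.47, 5.76, 5.76 and 5.27 in the controls, and of the 8 fits that leave out an array it passed only in the one without K320E replicate 2 (adjusted p = 0.0105, against 0.0618 to 0.147 without each other array). The mean of Clec4d over all arrays (6.05) was inside the gauge. S100a8 and S100a9, the calprotectin subunits, had the largest fold changes of the list, 1.73 and 1.56 (limma adjusted p = 0.0745 and 0.0699). Stressed keratinocytes make both of them too.

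The macrophage markers split by direction. Cd68, a lysosomal glycoprotein of macrophages, measured 9.26, 8.68, 8.90 and 8.73 in K320E and 8.16, 8.57, 8.50 and 8.31 in the controls. Every K320E array lay above every control, 1.42-fold higher on average (95% interval 1.15 to 1.77; log2 fold change 0.51, SE 0.14; limma adjusted p = 0.137). Cd14, the co-receptor for bacterial lipopolysaccharide, had the same order of groups. It measured 6.65, 6.14, 6.35 and 6.48 in K320E and 5.77, 6.09, 6.03 and 5.86 in the controls. The groups did not overlap, though K320E replicate 2 and control replicate 2 were close, and the fold change was 0.46 (SE 0.12, limma adjusted p = 0.111). In both genes K320E replicate 1 was the highest array and control replicate 1 the lowest.

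On the other side of 0 lay 10 markers, and 4 of them had an unadjusted p under 0.05 in limma: Tyrobp, Fcer1g, Ctss and Aif1. Tyrobp encodes DAP12, an adaptor that carries activating signals from receptors of macrophages, Langerhans cells and natural killer cells. It measured 8.69, 9.07, 9.11 and 8.99 in K320E and 9.21, 9.74, 9.40 and 9.57 in the controls. All K320E arrays lay below all controls, at 0.70-fold of their mean (95% interval 0.574 to 0.854; log2 fold change -0.51, SE 0.13; limma adjusted p = 0.111). Fcer1g, the adaptor of Fc receptors, had a fold change of -0.26 (limma adjusted p = 0.286), with 7.64 to 7.87 in K320E and 7.81 to 8.24 in controls. Ctss, the lysosomal protease cathepsin S that trims the class II invariant chain, was the marker with the highest mean of the class. It measured 9.99, 10.10, 10.31 and 9.83 in K320E and 10.09, 10.45, 10.44 and 10.54 in the controls, and control replicate 1 was the array that made the groups overlap. Its fold change was -0.32 (SE 0.12, limma adjusted p = 0.27). Aif1, the calcium-binding protein IBA1, had a fold change of -0.33 (limma adjusted p = 0.26), with the K320E arrays between 5.68 and 6.24 and the controls between 6.11 and 6.41.

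The other macrophage markers had overlapping groups and an unadjusted p above 0.05. Adgre1, which encodes an adhesion receptor of mouse macrophages, had a fold change of -0.10 (95% interval -0.48 to 0.28), and Csf1r, the receptor for colony-stimulating factor 1, one of -0.15 (-0.43 to 0.12). Their levels ran from 6.26 to 7.09 and from 6.32 to 6.99. The complement genes C1qa, C1qb and C1qc, made together by resident macrophages, had fold changes of -0.12, -0.13 and 0.04 at levels from 6.63 to 7.02, 7.07 to 7.79 and 5.73 to 6.11. Itgam, the alpha chain of an integrin of myeloid cells, had one of -0.06 (6.38 to 6.58). Mrc1, the mannose receptor of resident dermal macrophages, lay between 6.73 and 7.12 in K320E and between 6.89 and 7.74 in controls, a fold change of -0.31 (SE 0.17, limma adjusted p = 0.449). It was -0.14 without control replicate 3, its highest array, and -0.0578 without control replicates 2 and 3 together. Lyz2, lysozyme M, had one of 0.14 (6.98 to 7.81), which was 0.00182 without K320E replicate 3, 0.33 without control replicate 2 and 0.36 without control replicates 2 and 3 together. Without those 2 controls Adgre1 and C1qb turned to 0.0791 and 0.00632. Cd163, the haemoglobin scavenger receptor, had one of 0.06 at levels from 4.86 to 5.06, inside the gauge.

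**Figure D3:**
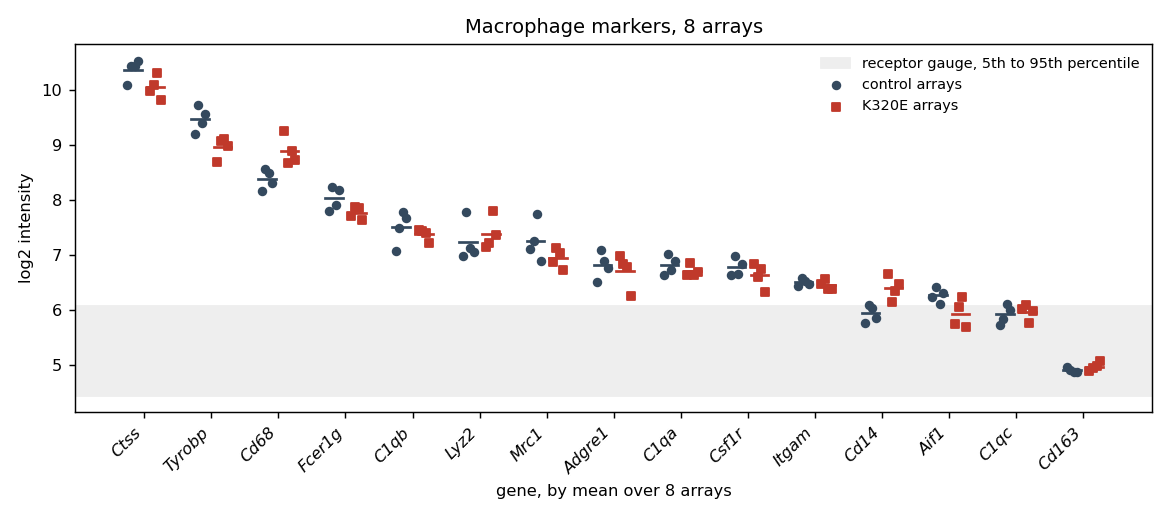
Log2 intensity (y axis) of the 15 macrophage markers on the 4 control arrays (circles) and 4 K320E arrays (squares), with group means as lines and the receptor gauge shaded. Squares lie above all circles for Cd68 and Cd14 and below all circles for Tyrobp, and the groups of the other 12 overlap.

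The median of the macrophage markers depended on single arrays. It was -0.12 over all arrays, -0.05 without control replicate 2, -0.05 without K320E replicate 4, -0.20 without control replicate 1, -0.07 without control replicate 3 and -0.0074 without control replicates 2 and 3 together. Control replicate 2 was the highest of the 8 arrays for 7 of the 15 markers. The mean over the 15 markers ran from 7.02 to 7.22 in K320E and from 7.02 to 7.36 in controls, so the groups overlapped in full. Leaving out control replicates 2 and 3 gave fold changes of 0.66 for Cd68, 0.59 for Cd14 and -0.42 for Tyrobp (limma adjusted p = 0.138, 0.122 and 0.275).

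Markers of other leukocytes were compared beside the macrophage genes. Of 12 Langerhans and dendritic cell markers, 0 rose and 2 fell in limma's test over all genes, and all 12 fold changes were negative, with a median of -0.16. The class II genes H2-Aa and H2-Ab1 fell by 1.05 (SE 0.08, limma adjusted p = 0.00206) and 0.98 (SE 0.13, limma adjusted p = 0.0129) on the log2 scale. H2-Aa passed in all 8 fits that leave out an array and H2-Ab1 in 7 of 8 (adjusted p = 0.0506 without K320E replicate 3). H2-Eb1, another class II gene of the list, had a fold change of -0.19 with overlapping groups (limma adjusted p = 0.252). The mean of this list lay between 6.25 and 6.32 in K320E and between 6.52 and 6.57 in controls. Its defining marker Cd207, langerin, was within the gauge in both groups (5.53 to 5.74), as was the mean of H2-Aa over all arrays (5.93). Of 15 T cell and lymphocyte markers, 1 rose and 0 fell in limma's test, while 10 of the 15 fold changes were negative. At an unadjusted p under 0.05 in limma 1 was higher and 5 lower, against 8.77% and 6.06% of all genes. All K320E arrays lay above all controls for 1 gene and below them for 4, against 5.50% and 3.75% of all genes. The gene that rose, Thy1, which fibroblasts also make, rose by 0.69 (limma adjusted p = 0.0495, adjusted p = 0.0161 without control replicate 3 and 0.0831 to 0.146 without each other array). Cd3g and Cd3d, subunits of the T cell receptor complex, had fold changes of -1.19 and -0.75 (limma adjusted p = 0.136 and 0.0645). Among 14 genes of all leukocytes none passed in limma's test, and the median was -0.07. At an unadjusted p under 0.05 in limma 1 of these was higher and 3 lower, against 8.77% and 6.06% of all genes. Ptprc, the leukocyte common antigen, was at -0.54 and Cd52 at -0.40, while Arhgdib was at 0.30 with all K320E arrays higher (limma adjusted p = 0.129). The part of these other leukocytes in the macrophage values was not tested.

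Further macrophage and monocyte genes had no call. Of 29 measured, 0 passed in limma's test, 6 had an unadjusted p under 0.05 (3 higher, 3 lower), and the median was -0.02. The shares of all genes at that unadjusted threshold were 8.77% higher and 6.06% lower. Pf4, a chemokine also stored in platelets, had the largest positive fold change, 0.42, and the fractalkine receptor Cx3cr1 the most negative, -0.41 (limma adjusted p = 0.329 and 0.171).

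Hdc had the lowest adjusted p of all 34 markers. It encodes histidine decarboxylase, the enzyme that makes histamine. It measured 6.13, 5.97, 6.63 and 6.14 in K320E and 5.37, 5.50, 5.83 and 5.03 in the controls. All K320E arrays lay above all controls, with K320E replicate 3 the highest and control replicate 4 the lowest, and the mean over all arrays (5.83) was inside the gauge. The difference was 1.72-fold (95% interval 1.29 to 2.29), or 0.78 on the log2 scale (SE 0.18; limma adjusted p = 0.0967). Without control replicates 2 and 3 together it was 1.02 (limma adjusted p = 0.0723), and over the 8 fits that leave out an array it ran from 0.64 to 0.92 (adjusted p from 0.061 to 0.205).

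The granule proteases Cpa3, Cma1 and Mcpt4 were each highest in K320E replicate 3. Cpa3, the carboxypeptidase of mast cell granules, measured 6.51, 6.96, 9.11 and 7.49 in K320E and 6.61, 6.96, 7.53 and 6.37 in the controls. K320E replicate 3 stood far above the rest, and the other K320E arrays lay within the range of the controls. Its fold change of 0.65 (SE 0.50, limma adjusted p = 0.624) was 0.12 without that array, 0.99 without K320E replicate 1 and 1.03 without control replicates 2 and 3 together. Cma1, the chymase of connective tissue mast cells, measured 5.30, 5.69, 6.10 and 5.60 in K320E and 5.31, 5.04, 5.65 and 5.11 in the controls. Here too K320E replicate 3 was highest and the groups overlapped, with a fold change of 0.39 (SE 0.18, limma adjusted p = 0.351) that was 0.25 without K320E replicate 3. Mcpt4, another chymase, ran from 5.19 to 6.04 in K320E and from 4.61 to 5.56 in controls. Its fold change was 0.35 (SE 0.23, limma adjusted p = 0.56), and 0.15 without K320E replicate 3, 0.18 without control replicate 4 and 0.65 without control replicates 2 and 3 together.

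The surface receptor that defines mast cells had fold changes near 0. Fcer1a and Ms4a2, the alpha and beta chains of the high-affinity IgE receptor, had fold changes of 0.03 (95% interval -0.09 to 0.15) and 0.01 (-0.11 to 0.13). Tpsb2, a tryptase, had one of 0.05 (-0.09 to 0.20). The levels of these 3 genes, between 4.54 and 5.34, lay inside the receptor gauge on all 8 arrays. They give the class its low values, while Hdc, Cpa3, Cma1 and Mcpt4 give it the high ones.

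**Figure D4:**
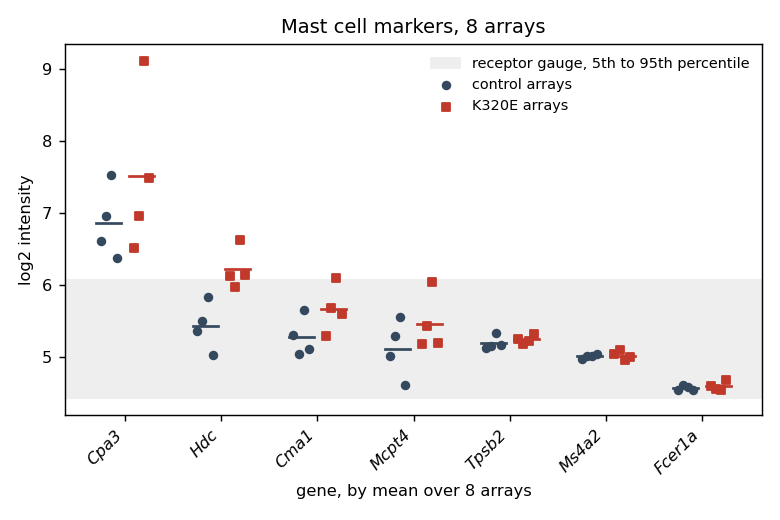
Log2 intensity (y axis) of the 7 mast cell markers on the 4 control arrays (circles) and 4 K320E arrays (squares), with group means as lines and the receptor gauge shaded. Only Hdc has all squares above all circles, and the highest square of Cpa3 (9.11), Hdc, Cma1 and Mcpt4 is K320E replicate 3 in each.

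K320E replicate 3 was the highest of the 8 arrays for 4 of the 7 mast cell markers, and control replicate 4 the lowest for 3. K320E replicate 3 was also the only K320E array with low Xist and high Y-linked transcripts. The median of the class, 0.35 over all arrays, was 0.12 without K320E replicate 3, and without control replicate 4 it was 0.18. The mean of the dermal markers was high and low on some of the same arrays. The mean of 11 dermal fibroblast markers was 8.04 in K320E replicate 3, the highest of all arrays, and 7.30 in control replicate 4, the lowest. The 3 arrays lowest for Cpa3, namely control replicate 4, K320E replicate 1 and control replicate 1, were also the 3 lowest for this mean (7.30, 7.48 and 7.36). The 3 highest were shared too: K320E replicate 3, control replicate 3 and K320E replicate 4 (8.04, 7.88 and 7.81). Mcpt4 had the same 3 lowest arrays, but Cma1 and Hdc did not. Cma1 was lowest in control replicate 2 (5.04), where the dermal mean was 7.63. Hdc was at 6.13 in K320E replicate 1, above all controls, where the dermal mean was 7.48. Over the groups the dermal mean ran from 7.48 to 8.04 in K320E and from 7.30 to 7.88 in controls. Dpt, a protein of dermal matrix, and the collagen gene Col1a2 had the largest fold changes of that list, 0.76 and 0.51. Fold changes were positive for 8 of the 11 genes and negative for 3: Postn (-0.23), Dcn (-0.14) and Pdgfrb (-0.11). In limma's test 0 of the 11 passed the threshold, and 2 had an unadjusted p under 0.05, Mfap5 higher and Postn lower. Not every gene followed the mean of the list: Dcn was highest in control replicate 1 and Postn in control replicate 2. The mean of 13 skeletal muscle markers ran from 6.80 to 7.93 in K320E and from 6.39 to 7.16 in controls. It too was highest in K320E replicate 3 and lowest in control replicate 4, and none of the 13 genes passed limma's test (2 at an unadjusted p under 0.05), the largest fold changes being 1.08 for Mylpf and 1.05 for Acta1. Of 10 endothelial markers 0 passed in limma's test and 0 had an unadjusted p under 0.05, with Kdr at 0.22 and Pecam1 at 0.19. Of 4 erythroid markers 0 passed in limma's test and 1 had an unadjusted p under 0.05, with Car2 at -0.25 and Hbb-y at 0.07. The unadjusted counts of these 4 lists stand beside 14.8% of all genes. The part of dermal or muscle tissue in the mast cell values was not tested.

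**Figure D5:**
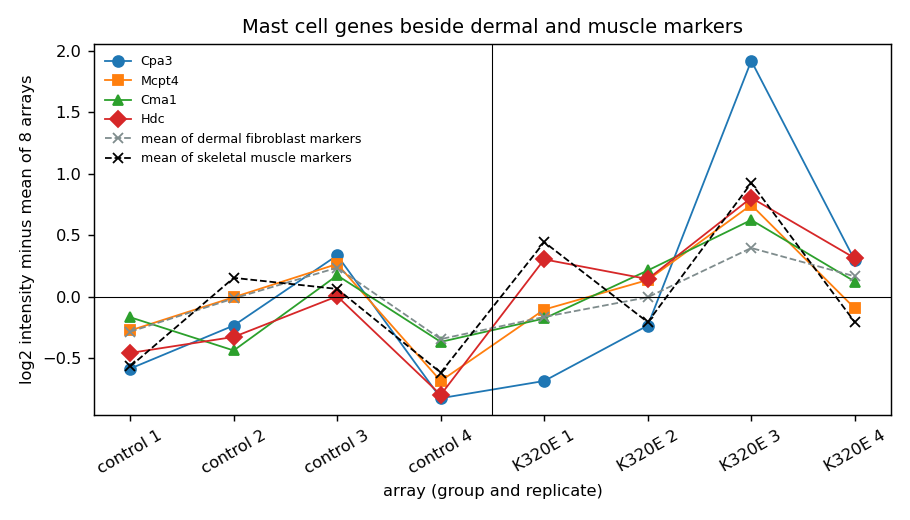
Log2 intensity of Cpa3, Mcpt4, Cma1 and Hdc, and the means of 11 dermal fibroblast and 13 skeletal muscle markers, each minus its mean over the 8 arrays (y axis), by array (x axis; lines join the arrays for reading only). Every trace is highest in K320E replicate 3, and Hdc alone has all 4 K320E arrays above all controls.

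Other mast cell genes had no call and a median near 0. Of 20 measured, 0 passed in limma's test, 3 had an unadjusted p under 0.05 (2 higher, 1 lower), and the median was -0.01. The shares of all genes at that unadjusted threshold were 8.77% higher and 6.06% lower. Kit, the receptor for stem cell factor that melanocytes carry too, had means of 8.64 ± 0.13 in the mutants and 8.65 ± 0.16 in the controls (SD over 4 arrays each). The transcription factor gene Gata2 had a fold change of -0.06 and the tryptase gene Tpsab1 one of 0.02. Hpgds, a prostaglandin D synthase, had the largest of the list, 0.62 (limma adjusted p = 0.174), with all K320E arrays (10.56 to 10.81) above all controls (9.58 to 10.48). The receptor gene Mrgprx2 had the most negative, -0.32 (limma adjusted p = 0.225). Of 5 basophil genes, 0 passed in limma's test and 0 at an unadjusted p under 0.05, with Mcpt8 at -0.11 and Il4 at 0.08.

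Signals that recruit or sustain these cells were compared as a list of 33 genes. In limma's test over all genes 1 rose and 0 fell, and the median was 0.01. At an unadjusted p under 0.05 in limma there were 8 (6 higher, 2 lower), against 8.77% higher and 6.06% lower of all genes. Il33, an alarmin that activates mast cells, rose by 1.04 (SE 0.18, limma adjusted p = 0.0396). It measured 7.11, 6.56, 7.24 and 7.34 in K320E and 6.16, 6.24, 6.07 and 5.66 in the controls, and of the fits that leave out an array it passed only without K320E replicate 2 (adjusted p = 0.012, against 0.0726 to 0.131 without each other array). The neutrophil-attracting chemokine genes Cxcl2 and Cxcl3 had fold changes of 0.69 and 0.88 (limma adjusted p = 0.0772 and 0.27), while Cxcl1, Cxcl5 and Cxcl15 of the same family had 0.12, 0.02 and -0.02. Among growth factors, Kitl, the stem cell factor, and Csf1 had fold changes of 0.08 and -0.04, while Il34, the Csf1r ligand made by keratinocytes, had one of -0.47 (limma adjusted p = 0.247).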

How the data were processed

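Total RNA of newborn epidermis (8 samples, 4 per group) was amplified (Applause WT-Amp Plus ST, NuGen) before biotin labelling, per the labels' protocols. The deposited values are log2 intensities of 33793 probe sets, from 4.31 to 13.13, with array medians from 6.06 to 6.11. How the authors corrected background and normalised is not given in the sources used here; nothing further was done to the values. Arrays with identical values were looked for and none found. Precision is limited by the number of arrays.

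Groups came from the sample titles. GEO's platform annotation gave 1 gene symbol for 23521 probe sets, several for 1814 and none for 8458. Probe sets naming 1 gene were kept, the one with the highest mean per gene, which left 22180 genes. Genotype was fitted with limma 3.58.1 in R 4.3.3 (lmFit, eBayes, two-sided), with Benjamini-Hochberg adjustment over all genes and a threshold of 0.05. The fit was tested on simulated data. Every marker is named; values per array are given for markers with groups that do not overlap, the 3 largest absolute fold changes and the highest level of each class. From context lists, called genes and the 2 largest fold changes are named; other genes were chosen after their values were seen. Of 217 context entries, 198 were measured. Members and lists were chosen with earlier results of these data known. Promoter windows are from RefSeq, GRCm38.p6. Alternatives changed the scaling (median centring, quantile normalisation), the probe sets (their mean per gene, or each one tested), the filter (without the lowest 33.3% of genes), the model (array weights, the replicate block, a trended robust prior) and the arrays (each left out in turn, and control replicates 2 and 3 together).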

Additional observations from a re-analysis of the deposited data

Results flagged for a closer look

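Single arrays far from the rest of their group of 4 were looked for in the 68 groups formed by 34 markers and the 2 genotypes. Chance gives about 1 such group in 20, and 2 were found. Retnlg was at 5.01 in control replicate 2, with the other controls between 5.07 and 5.08. Csf3r was at 5.13 in K320E replicate 3, with the other K320E arrays between 5.32 and 5.35. Both genes lay inside the range of the receptor gauge.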

How the results depend on the processing

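No marker of any class passed the threshold under any alternative, with the exception of Hdc under the replicate block (log2 fold change 0.78, adjusted p = 0.0483), which gave 1 mast cell marker called. Deviations of same-numbered arrays from their group means correlated at 0.051, -0.065, 0.082 and 0.137. Those of differently numbered arrays correlated at -0.152 to 0.134, so these values do not decide whether the replicate numbers pair the arrays. The replicate block called 114 genes instead of 195. Leaving out each array gave 53 to 173 called genes, and 4 to 9 markers at an unadjusted p under 0.05 instead of 8 (5 without K320E replicate 1, 4 without K320E replicate 4, 5 without control replicate 4). Over these 8 fits the class medians ran from 0.06 to 0.10 for neutrophils, -0.20 to -0.05 for macrophages and 0.12 to 0.49 for mast cells. The filter on low genes left out 13 of the 34 markers and gave a mast cell median of 0.72 over those it kept. The number of context genes called, 5 with all arrays and settings as described, was 3 with median centring, 3 with array weights, 3 with the replicate block, 9 with the filter and 1 to 6 without an array.

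Of 565 fold changes of markers under alternatives, 27 turned sign, in 9 markers. In the main fit the fold changes of these 9 ran from -0.13 (C1qb) to 0.05 (Trem1). C1qb and Adgre1 (-0.10) were among the 10 negative macrophage markers, so that count depends on the setting. With median centring the markers that turned sign were Ly6g (-0.00766), Mpo (-0.000997) and Ms4a2 (-0.00036). Without control replicates 2 and 3 together they were Ly6g (-0.00822), Mpo (-0.0713), Elane (0.0103), Trem1 (-0.084), C1qb (0.00632) and Adgre1 (0.0791). Leaving out each array, the fold change ran from -0.0657 to 0.076 for Ly6g, -0.0353 to 0.0556 for Mpo, -0.0563 to 0.0229 for Elane, -0.0159 to 0.10 for Trem1, -0.0498 to 0.15 for Stfa2l1, -0.0191 to 0.11 for C1qc, -0.20 to 0.0516 for Adgre1 and -0.0149 to 0.0304 for Ms4a2. The cause was not tested. Low signal limits the neutrophil and mast cell classes, since 17 of their 19 markers had a mean at or under the 95th percentile of the receptor gauge (6.07).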

Other observations

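The chemokine receptor gene Cxcr2, chosen after its values were seen, split the controls. It measured 8.02, 7.99, 8.14 and 7.99 in K320E replicates 1 to 4, a spread of 0.07 (SD, n = 4), and 6.54, 6.51, 7.97 and 5.83 in the controls. Control replicate 3, the array with low Xist and low Y-linked transcripts, was thus close to the K320E arrays, and the log2 fold change was 1.32 (SE 0.37, limma adjusted p = 0.147). The same array was not close to them for Clec4d (5.76, with K320E arrays from 6.01 to 6.73) or Il33 (6.07, with K320E arrays from 6.56 to 7.34).

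The acute-phase gene Hp was also chosen after its values were seen. It was at 6.91 in K320E replicate 3 and between 5.78 and 5.96 on the other 7 arrays. The array highest for Cpa3 and for the mean of the dermal markers thus stood apart for this gene as well. It was also the only K320E array with low Xist (6.84) and high Y-linked transcripts (8.64).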
